A study of Mus musculus with 2 samples.

Results

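Tcf7, Lef1, Bach2, Id3, Ccr7, Il7r and Slamf6 are 7 genes that mark naive T cells and the stem-like or memory precursor T cells of tumours. They were picked by name from the 32285 genes of each count matrix, and all 7 were found. Their levels were read in T cells that had been isolated from subcutaneous EMT6 tumours, a mouse mammary carcinoma line grown in BALB/c mice of 4 to 6 weeks. Mice were randomised once tumours measured 80 to 150 mm3, and were given either mSTAR1302 by intraperitoneal injection, 1 dose a week for 2 cycles, or vehicle. According to its makers mSTAR1302 joins interleukin-2 to an antibody that recognises the Vβ13-2 and Vβ13-3 chains of the T cell receptor. Tumours of both groups were digested and their CD4+ and CD8+ cells enriched on magnetic beads, and each group is 1 droplet library, with the number of mice behind it not given in the sources used here. With 1 library a group there is no replicate and no test of treatment, so every interval below is a 95% interval of counting error alone.

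Cells were read in 3 gates. A T cell held at least 2 UMIs (unique transcript molecules) summed over the CD3 genes Cd3d, Cd3e and Cd3g. The CD8 gate took T cells without Cd4 that held Cd8a or Cd8b1, and gave 6290 cells in the mSTAR1302 library and 2460 in the vehicle library. CD4 cells had a Cd4 UMI and none of Cd8a or Cd8b1, and were split by Foxp3, the transcription factor of regulatory T cells. There were 791 and 622 CD4 cells without a Foxp3 UMI, and 146 and 1365 with one. A level is the UMIs of a gene summed over a gate, scaled to the gate's total as CPM (counts per 1e6 UMIs). Each gate was also read without cells holding a UMI of Igfbp4, a transcript of naive T cells and of fibroblasts.

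As background, Tcf7 (the protein TCF1) and Lef1 are related DNA-binding factors of the high mobility group type that start the T cell programme in the thymus and keep mature T cells naive or able to renew. Bach2 is a repressor that competes with AP-1 factors for DNA and holds back effector genes. Id3 binds E proteins and stops them from binding DNA, and it is known as a marker of memory precursors. Ccr7 is the chemokine receptor that brings T cells to lymph nodes, Il7r is the alpha chain of the receptor for interleukin-7, a survival signal, and Slamf6 is a surface receptor of the SLAM family often used with TCF1 to find stem-like T cells in tumours.

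All 7 genes are protein coding, and positions are on GRCm38. Tcf7 (ENSMUSG00000000782) lies on chromosome 11 at 52252371 to 52283014 on the minus strand. Ccr7 (ENSMUSG00000037944) lies on chromosome 11 at 99144196 to 99155077 on the minus strand, 89803 bases from Igfbp4 on the same chromosome. Lef1 (ENSMUSG00000027985) lies on chromosome 3 at 131110471 to 131224356 on the plus strand. Bach2 (ENSMUSG00000040270) and Id3 (ENSMUSG00000007872) are both on chromosome 4, at 32238804 to 32586108 and 136143497 to 136145755, plus strand. Il7r (ENSMUSG00000003882) lies on chromosome 15 at 9505788 to 9530176 on the minus strand, and Slamf6 (ENSMUSG00000015314) on chromosome 1 at 171917515 to 171953170 on the plus strand. Counted genes overlap Tcf7 (A630014C17Rik), Lef1 (Gm43352), Bach2 (Bach2it1 and Bach2os) and Slamf6 (Gm37065), and reads of overlapping genes may be shared between them.

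RefSeq promoter windows, each of 300 bases around a transcript start on GRCm38.p6, were available for 6 of the 7 genes, 10 windows in all. They were searched on both strands for 4 TCF and LEF words, which the Tcf7 and Lef1 proteins can read (the word CTTTGAA, then the word CTTTGAT, further the word CTTTGTA and last the word CTTTGTT), and for the forkhead word GTAAACA, read by Foxo1, a factor known to act on Il7r and Ccr7. The 2 windows with a match are shown because they belong to the pair of related factors followed most closely here. Capitals mark the match, written on the gene's own strand (in Lef1 the searched word lies on the other strand), and the words do not overlap each other. The Lef1 window is a start inside the gene, chr3:131156044-131156343, plus strand, with its match at position -147 from that start, and the Tcf7 window is chr11:52282546-52282845, minus strand, with its match at position 1.
Lef1 window: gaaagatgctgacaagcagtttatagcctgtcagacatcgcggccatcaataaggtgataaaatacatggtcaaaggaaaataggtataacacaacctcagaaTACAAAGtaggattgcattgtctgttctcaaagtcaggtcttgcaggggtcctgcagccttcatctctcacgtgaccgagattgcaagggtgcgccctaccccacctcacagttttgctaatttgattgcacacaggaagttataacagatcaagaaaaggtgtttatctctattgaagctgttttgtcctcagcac
Tcf7 window: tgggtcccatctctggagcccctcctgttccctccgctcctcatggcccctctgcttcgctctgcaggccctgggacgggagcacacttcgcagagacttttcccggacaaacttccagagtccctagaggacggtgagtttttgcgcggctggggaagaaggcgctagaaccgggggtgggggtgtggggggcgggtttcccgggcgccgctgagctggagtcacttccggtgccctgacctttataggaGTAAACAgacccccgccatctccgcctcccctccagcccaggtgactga
Of 32851 promoter windows of the same length, 16.9% hold a TCF or LEF word and 3.65% the forkhead word, so 1 of 10 windows with each is a description of these letters only. The other 8 windows, of Tcf7, Lef1, Bach2, Id3, Il7r and Slamf6, held neither word.

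Sequencing gave 96486469 UMIs in the mSTAR1302 library and 110026997 in the vehicle library over all listed barcodes. After filters on UMIs, genes and mitochondrial share, 9155 and 7615 cells remained, with medians of 6260 and 8448 UMIs, and 8718 and 6729 of them passed as T cells. The defining T cell markers (Cd3d, Cd3e, Cd3g, Trac, Trbc1 and Trbc2) were all present in every gate of both libraries, and 1491 and 2282 T cells fell outside the 3 gates. Both libraries shared 17 kept barcodes. CD8 cells of the vehicle library were deeper, with a median of 9865.5 UMIs against 6597.5, so shares of cells are compared below after each cell was thinned at random to 3000 UMIs.

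In CD8 cells the 7 genes did not move as a block between the libraries. Lef1 was 3.94-fold higher in the mSTAR1302 library, Ccr7 was 4.23-fold lower and Bach2 2.7-fold lower, while Tcf7, Il7r and Slamf6 had ratios of 1.11, 1.03 and 1.09. The median log2 ratio over the 7, with 1 CPM added to both levels, was 0.04, with 1 gene past 2-fold upwards and 2 past it downwards. Over the 5473 genes of at least 20 CPM in either library, of which 6 of the 7 are part, 1.04% passed 2-fold upwards and 4.73% passed it downwards, with a median of -0.14.

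Among the factors, Lef1 stood at 62.7 CPM (60.5 to 64.9) in the mSTAR1302 library and 15.9 CPM (14.5 to 17.4) in the vehicle library, 3.94-fold higher (interval of the ratio 3.57 to 4.36). Its relative Tcf7 stood at 45.9 CPM (44.1 to 47.9) in the mSTAR1302 library and 41.4 CPM (39.1 to 43.8) in the vehicle library, 1.11-fold higher (interval of the ratio 1.03 to 1.19). The intervals of both genes do not overlap between libraries, but the Lef1 difference is far the wider of the pair. Bach2, the repressor, ran the other way, at 26.7 CPM (25.3 to 28.2) in the mSTAR1302 library and 72.0 CPM (68.9 to 75.2) in the vehicle library, 2.7-fold lower (interval of the ratio 2.52 to 2.89). Id3 was read from 273 and 291 UMIs, at 5.59 CPM (4.95 to 6.3) in the mSTAR1302 library and 10.1 CPM (8.93 to 11.3) in the vehicle library, 1.8-fold lower (interval of the ratio 1.52 to 2.13).

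Of the receptors, Ccr7 had the largest difference of the 7 genes in CD8 cells, at 97.6 CPM (94.9 to 100.4) in the mSTAR1302 library and 413 CPM (406 to 421) in the vehicle library, 4.23-fold lower (interval of the ratio 4.09 to 4.38). Il7r was close to level, at 263 CPM (258 to 267) in the mSTAR1302 library and 255 CPM (249 to 261) in the vehicle library, and its ratio of 1.03 had an interval of 1.0 to 1.06. Slamf6 was at 39.7 CPM (38.0 to 41.5) in the mSTAR1302 library and 36.3 CPM (34.2 to 38.6) in the vehicle library, 1.09-fold higher (interval of the ratio 1.01 to 1.18). The receptor for lymph node homing was thus several-fold lower, and the receptors for interleukin-7 and of the SLAM family were nearly level.

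**Figure D1:**
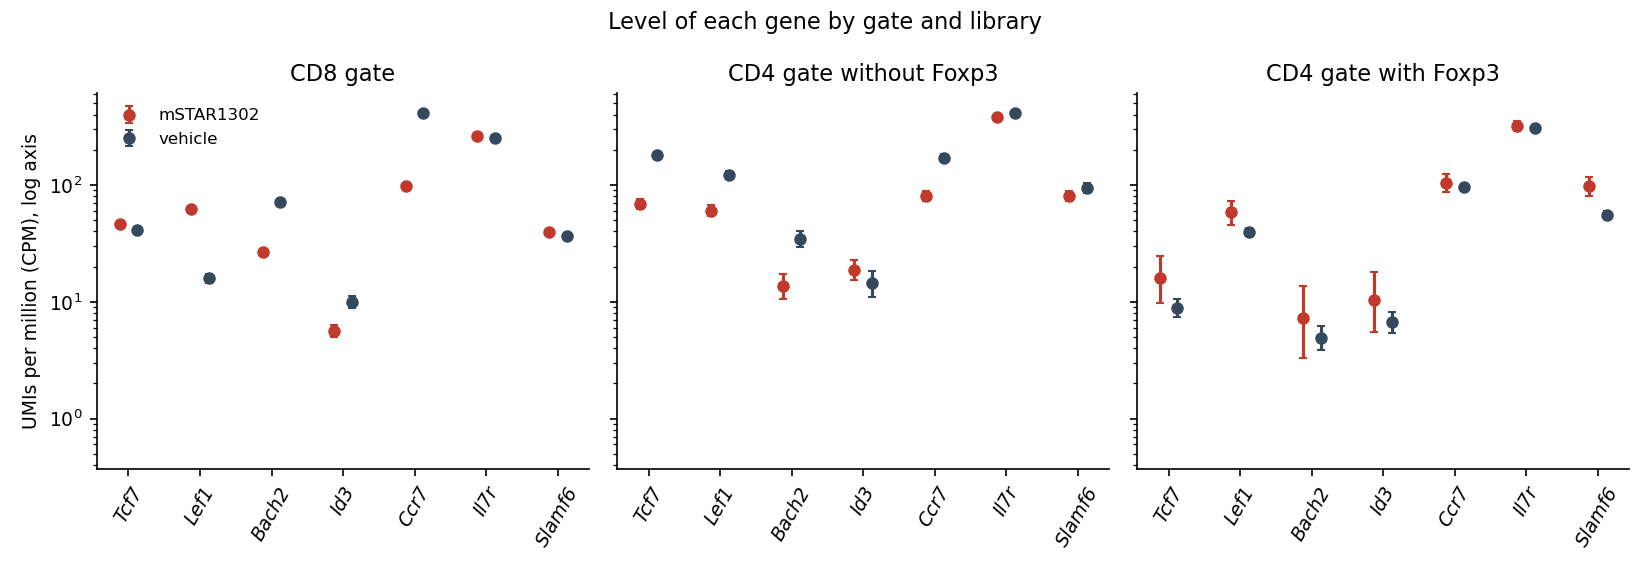
Level of each of the 7 genes in CPM (log axis) in the 3 gates, red for the mSTAR1302 library and dark blue for the vehicle library, with bars for the 95% Poisson interval of counting error. In the CD8 gate Lef1 is higher in the mSTAR1302 library and Bach2, Id3 and Ccr7 are higher in the vehicle library; in CD4 cells without Foxp3, Tcf7, Lef1, Bach2 and Ccr7 are all higher in the vehicle library.

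Transcripts of other cell types moved with the libraries. In the CD8 gate the 6 macrophage markers summed to 56.2 CPM in the mSTAR1302 library and 686 in the vehicle library, the 9 dendritic cell markers to 41.0 and 200.3, and the 3 fibroblast markers to 22.2 and 102. Mature dendritic cells also express Ccr7. Without the cells that held a UMI of any of Cd79a, Ms4a1, H2-Aa, Fscn1, Siglech, C1qa, Lyz2 or Col1a1, the CD8 log2 ratio was -2.17 for Ccr7, 1.8 for Lef1 and -1.57 for Bach2, against -2.07, 1.91 and -1.4 with them. The differences of these 3 genes were thus about as large without those cells.

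Cells holding Igfbp4 made up 30 of the 6290 mSTAR1302 cells of the CD8 gate and 81 of the 2460 vehicle cells. They carried much of the Id3: 33.3% and 50.9% of all Id3 UMIs of the gate. Id3 reached 139 CPM in them and 3.78 CPM in the other CD8 cells of the mSTAR1302 library, and 60.5 and 5.4 CPM in the vehicle library. In these CD8 cells the fibroblast markers summed to 1520.3 and 1101 CPM, the macrophage markers to 1327 and 3249.5, and the EMT6 markers Krt8, Krt18 and Epcam to 420.4 and 536. RNA of other cell types was thus measured in them as well. In the remaining CD8 cells the fibroblast sum was 1.74 and 9.36 CPM. Without them Lef1 was 4.31-fold higher (interval of the ratio 3.88 to 4.81), Ccr7 4.48-fold lower and Bach2 2.88-fold lower, while Id3 was 1.43-fold lower (interval of the ratio 1.14 to 1.79).

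Shares of CD8 cells with a UMI, read at 3000 UMIs a cell over 5610 and 2340 cells (680 and 120 shallower cells left out), followed the levels. Lef1 was found in 17.6% (16.6 to 18.6) of mSTAR1302 cells and 5.0% (4.15 to 5.96) of vehicle cells, a difference of 12.6 percentage points (11.2 to 13.9). Ccr7 was found in 13.5% and 38.3%, a difference of -24.8 percentage points (-27.0 to -22.6). For Bach2 the shares were 7.09% and 17.8%, a difference of -10.7 percentage points (-12.4 to -9.03). These 3 differences were therefore spread over many cells and not set by a few with very high counts.

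The other 4 genes differed little in share. Tcf7 was in 12.7% and 10.8% of thinned CD8 cells, a difference of 1.94 percentage points (0.372 to 3.43), and unthinned in 22.2% and 22.9%. Il7r was in 46.0% and 46.4%, with a difference of -0.403 percentage points (-2.81 to 2.0). Slamf6 was in 10.8% and 10.4%, with a difference of 0.40 percentage points (-1.12 to 1.84). Id3 was in 1.25% and 1.97%. Unthinned, the shares were 31.5% and 11.3% for Lef1, 20.8% and 50.2% for Ccr7, 14.1% and 39.1% for Bach2, 65.0% and 72.2% for Il7r, 21.7% and 25.4% for Slamf6, and 2.34% and 4.96% for Id3.

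Free RNA in droplets can add UMIs to any cell. As a background, barcodes with no CD3 UMI and at least 10 UMIs of macrophage markers were read the same way. There were 20 in the mSTAR1302 library (median 10888 UMIs) and 67 in the vehicle library (median 22151 UMIs). Of these, 19 and 59 had at least 3000 UMIs and were thinned. None held Tcf7, Lef1 or Slamf6, and the intervals of these counts of 0 reach 17.6% and 6.06% of such barcodes. The CD8 shares of Tcf7, Lef1 and Slamf6 in the mSTAR1302 library lie under the first limit (Lef1 at 17.59% against 17.65%). The CD8 share of Lef1 in the vehicle library lies under the second. These few barcodes cannot set those shares apart from background. Ccr7 was in 5.26% (0.133 to 26.0) and 3.39% (0.413 to 11.7) of them, and its CD8 share lies above that interval in the vehicle library and within it in the mSTAR1302 library. Bach2 was in 0% (0 to 17.6) and 1.69% (0.0429 to 9.09), with the same outcome. Il7r was in 42.1% (20.3 to 66.5) and 18.6% (9.69 to 30.9), so its CD8 share in the mSTAR1302 library cannot be told apart from this background. Id3 was in 5.08% of the vehicle barcodes, above its CD8 share there, so its shares are read as background. Id3 in near-empty droplets was at 9.09 and 34.6 CPM, above its CD8 level in both libraries. Near-empty droplets, of 100 to 300 UMIs, held Tcf7 at 33.9 and 18.2 CPM, Slamf6 at 34.1 and 27.2, and Il7r at 174 and 170.4. They held Ccr7 at 54.1 CPM in the mSTAR1302 library and 136 in the vehicle library, Lef1 at 43.6 and 24.3, and Bach2 at 10.9 and 16.5. For these last 3 genes the droplets differed in the same direction as the CD8 cells, by less. That profile was also subtracted from the gate sums, at the droplets' median of 211 and 216 UMIs for each cell. The CD8 log2 ratios were then 1.94 for Lef1, -2.07 for Ccr7 and -1.4 for Bach2, close to those without the subtraction. So small an amount, beside median CD8 depths of 6597.5 and 9865.5 UMIs, could hardly move the ratios, and the part of free RNA in them was not tested.

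In CD4 cells without Foxp3, Tcf7, Lef1, Bach2 and Ccr7 were lower in the mSTAR1302 library by 2-fold or more, 4 of the 7 genes. None was at least 2-fold higher, and the median log2 ratio was -1.0. Over the 5518 genes of at least 20 CPM in this gate, including 6 of the 7, 5.35% were at least 2-fold lower and 0.906% at least 2-fold higher, with a median of -0.21. A small number of vehicle cells that held Igfbp4 carried most of the Lef1 difference and a smaller part of the other 3.

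Tcf7 in this gate stood at 68.7 CPM (61.8 to 76.2) in the mSTAR1302 library and 179.6 CPM (167 to 193) in the vehicle library, 2.61-fold lower (interval of the ratio 2.3 to 2.97). Lef1 stood at 60.5 CPM (54.0 to 67.5) in the mSTAR1302 library and 122 CPM (112 to 133) in the vehicle library, 2.02-fold lower (interval of the ratio 1.75 to 2.33), so its direction was the opposite of that in CD8 cells. Bach2 was 13.6 and 34.5 CPM, 2.54-fold lower (interval of the ratio 1.9 to 3.42). Of the regulators only Id3 was not lower, at 18.8 and 14.4 CPM, with an interval of the ratio (0.941 to 1.83) that holds 1. Among the receptors Ccr7 was 80.4 and 171 CPM, 2.13-fold lower (interval of the ratio 1.89 to 2.4). Il7r at 386 and 415 CPM and Slamf6 at 81.0 and 94.2 CPM had ratios of 0.93 (0.873 to 0.992) and 0.859 (0.748 to 0.987).

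Igfbp4 was held by 15 of 791 such mSTAR1302 cells and 68 of 622 vehicle cells. The 68 vehicle cells had 13.1% of the gate's UMIs but 51.2% of its Lef1, 34.0% of its Tcf7, 32.9% of its Bach2 and 24.5% of its Ccr7. Lef1 was at 478 CPM in them against 68.4 in the other vehicle cells, 6.99-fold higher (5.87 to 8.32). Tcf7 was at 468 against 136 CPM, 3.43-fold higher. Bach2 was at 86.8 against 26.6 CPM and Ccr7 at 321 against 149. Slamf6 went the other way, at 35.4 against 103 CPM. Lef1, Tcf7, Bach2 and Ccr7 were thus all higher in them than in the rest of the gate. In the same 68 cells the macrophage markers summed to 2422 CPM against 595 in the rest, and the dendritic cell markers to 953 against 149.6, and their part in these levels was not tested.

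Without the Igfbp4 cells, 1 of the 7 genes was at least 2-fold lower, and the median log2 ratio was -0.36. Tcf7 was then 66.2 and 136 CPM, 2.06-fold lower (interval of the ratio 1.79 to 2.37). Lef1 was 58.1 and 68.4 CPM, a ratio of 0.849 whose interval (0.716 to 1.01) holds 1. Bach2 at 13.5 and 26.6 CPM and Ccr7 at 79.7 and 149 CPM were each still lower, by just under 2-fold. The Lef1 difference of this gate thus rested on the Igfbp4 cells, and those of Tcf7, Bach2 and Ccr7 were smaller without them. With cells thinned to 3000 UMIs before gating, the log2 ratios were -0.72 for Tcf7, -0.39 for Lef1, -0.38 for Bach2 and -1.03 for Ccr7, so 1 gene was then at least 2-fold lower.

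**Figure D2:**
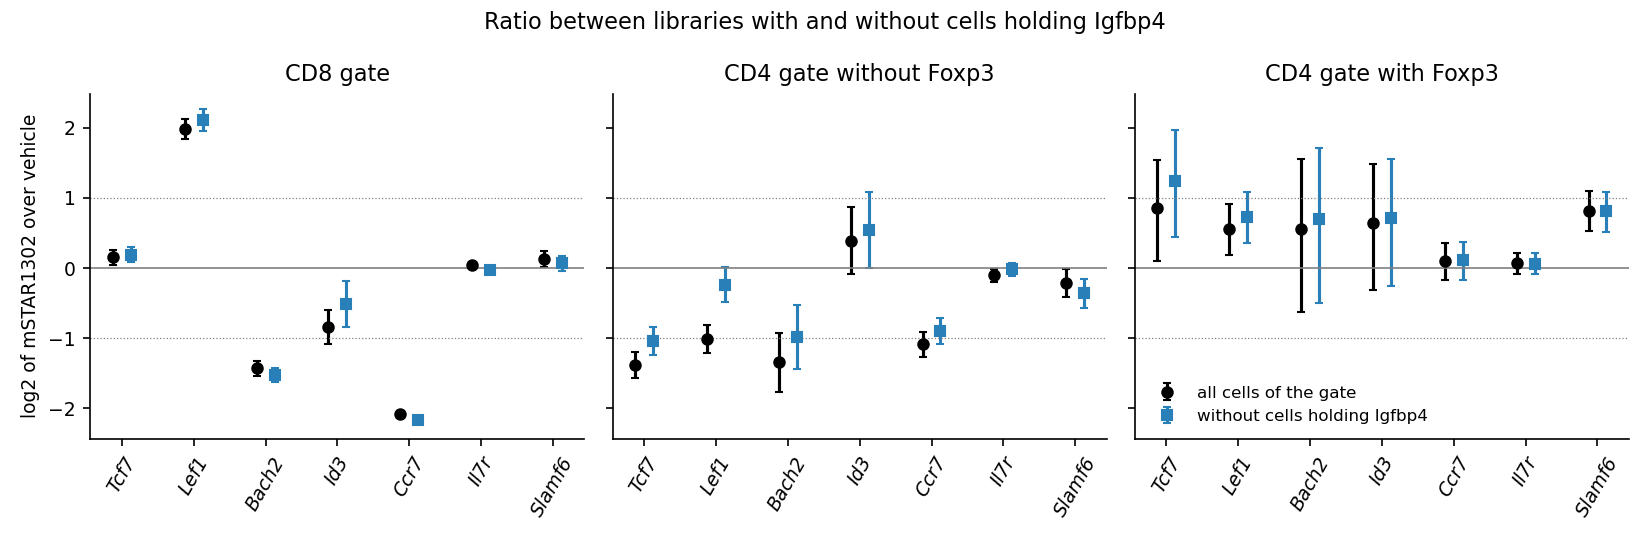
Log2 of the mSTAR1302 level over the vehicle level of each gene, without a pseudocount, in the 3 gates, as black circles for all cells and blue squares without cells holding Igfbp4, with bars for the 95% interval of counting error. Dotted lines mark 2-fold; removing Igfbp4 cells moves Lef1 of CD4 cells without Foxp3 to near 0 and leaves Lef1, Bach2 and Ccr7 of CD8 cells past the lines.

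Shares in thinned CD4 cells without Foxp3 pointed the same way. Tcf7 was in 14.6% and 32.5% of 690 and 545 cells, a difference of -17.8 percentage points (-22.6 to -13.1). Ccr7 was in 12.5% and 26.1%, a difference of -13.6 percentage points (-18.0 to -9.18), and Bach2 in 4.49% and 11%. Lef1 was in 18% and 20.9%, with a difference of -2.95 percentage points (-7.45 to 1.47). At 2000 UMIs a cell that difference was -6.28 points (-10.2 to -2.47), so the size of the Lef1 share difference depends on the depth chosen. Unthinned, the shares were 24.0% and 42.8% for Tcf7, 18.7% and 35.5% for Ccr7, 7.59% and 15.8% for Bach2, and 29.6% and 31.4% for Lef1.

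Markers of other cells moved with this gate too, and their part in the results was not tested. The regulatory T cell markers Foxp3, Il2ra, Ikzf2 and Ctla4, with Foxp3 at 0 by the gate, summed to 563 CPM in the mSTAR1302 library and 1424 in the vehicle library. The macrophage markers summed to 72.4 and 834 CPM, and the dendritic cell markers to 36.0 and 255. Without the Igfbp4 cells the macrophage sums were 14.3 and 595. The vehicle gate thus held more RNA of regulatory T cells and of macrophages.

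CD4 cells with Foxp3 were few in the mSTAR1302 library, 146 against 1365, and none of the 7 genes differed by 2-fold. Of the 5732 genes of at least 20 CPM, of which 4 of the 7 are part, 0.576% passed 2-fold upwards and 1.95% passed it downwards, with a median log2 ratio of -0.13 beside 0.55 for the 7. Slamf6 stood at 97.9 CPM (81.3 to 117) in the mSTAR1302 library and 55.6 CPM (51.8 to 59.6) in the vehicle library, 1.76-fold higher (interval of the ratio 1.44 to 2.13). Lef1 stood at 58.6 and 39.6 CPM, 1.48-fold higher (interval of the ratio 1.14 to 1.89). Tcf7 was low, at 16.0 and 8.87 CPM, 1.81-fold higher (interval of the ratio 1.07 to 2.91), from 20 UMIs in the mSTAR1302 library. The intervals of these 3 ratios lie above 1, but with cells thinned to 3000 UMIs before gating the log2 ratio of Tcf7 turned to -0.33, from 0.79.

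For the other 4 genes the interval of the ratio holds 1. Ccr7 was at 104 and 97.0 CPM, Il7r at 323 and 309, Bach2 at 7.22 and 4.92, and Id3 at 10.4 and 6.65. Without Igfbp4 cells, 1 in the mSTAR1302 library and 32 in the vehicle library, Tcf7 was at 15.3 and 6.47 CPM and so 1 gene was at least 2-fold higher, 2.37-fold higher (interval of the ratio 1.36 to 3.91). In the 32 vehicle cells Tcf7 was at 73.0 CPM, 11.3-fold above the rest of that gate. The macrophage markers in these 32 cells summed to 4333 CPM against 89.0 in the rest, and the dendritic cell markers to 1018 against 234. Slamf6 was in 26.1% and 14.2% of thinned cells, a difference of 11.9 percentage points (4.93 to 20.2), and unthinned in 42.5% and 33.1%. The macrophage markers summed to 7.22 and 242 CPM here, with 4 of 6 at 0 in the mSTAR1302 library, and their part in the result was not tested.

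Across the 6 combinations of gate and library, each gene had its own order. Tcf7 was highest in vehicle CD4 cells without Foxp3, followed by the mSTAR1302 cells of the same gate, CD8 cells of the mSTAR1302 and then the vehicle library, and last by the Foxp3 gate, where only the intervals of the 2 libraries overlap. Lef1 was also highest in vehicle CD4 cells without Foxp3. The 3 mSTAR1302 gates came next with overlapping intervals, and vehicle CD8 cells were lowest. Bach2 and Ccr7 were both highest in vehicle CD8 cells, with vehicle CD4 cells without Foxp3 second, and Bach2 was lowest in the Foxp3 gate, where the 2 libraries' intervals overlap. The Bach2 interval of mSTAR1302 Foxp3 cells also overlaps that of mSTAR1302 CD4 cells without Foxp3. Ccr7 was lowest in mSTAR1302 CD4 cells without Foxp3, followed by a group of 3 with overlapping intervals (mSTAR1302 and vehicle Foxp3 cells and mSTAR1302 CD8 cells). The lowest interval (72.9 to 88.5 CPM) overlaps that of mSTAR1302 Foxp3 cells (87.1 to 124). Il7r followed the gate more than the library, from CD4 cells without Foxp3 to those with Foxp3 and then CD8 cells. Within each gate the level intervals of the libraries overlap. The interval of its ratio still lay below 1 in CD4 cells without Foxp3 (0.873 to 0.992) and just above 1 in CD8 cells. Slamf6 was lowest in CD8 cells of both libraries, and the intervals of the highest 3, mSTAR1302 Foxp3 cells and both libraries' CD4 cells without Foxp3, overlap from neighbour to neighbour. Id3 was highest in CD4 cells without Foxp3 of both libraries, whose intervals overlap, and lowest in mSTAR1302 CD8 cells, whose interval overlaps that of vehicle Foxp3 cells. The wide Id3 interval of mSTAR1302 Foxp3 cells, 5.55 to 17.8 CPM, overlaps all of these.

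Within single CD8 cells some of the genes fell into pairs. Lef1 and Tcf7 went together. Lef1 was found in 27.2% (24.0 to 30.6) of the 713 cells with a Tcf7 UMI and 16.2% (15.2 to 17.3) of the 4897 without in the mSTAR1302 library, and in 16.7% (12.3 to 21.9) of the 252 cells with a Tcf7 UMI and 3.59% (2.84 to 4.48) of the 2088 without in the vehicle library. Bach2 and Ccr7 made the other pair. Ccr7 was found in 27.1% (22.8 to 31.8) of the 398 cells with a Bach2 UMI and 12.5% (11.6 to 13.4) of the 5212 without in the mSTAR1302 library, and in 52.6% (47.7 to 57.5) of the 416 cells with a Bach2 UMI and 35.2% (33.1 to 37.4) of the 1924 without in the vehicle library. Across the pairs, Ccr7 was found in 28.2% (20.3 to 37.3) of the 117 cells with a Lef1 UMI and 38.9% (36.8 to 40.9) of the 2223 without in the vehicle library, and in 45.2% (39.0 to 51.6) of the 252 cells with a Tcf7 UMI and 37.5% (35.4 to 39.6) of the 2088 without. In the mSTAR1302 library it was found in 11.9% (9.9 to 14.0) of the 987 cells with a Lef1 UMI and 13.9% (12.9 to 14.9) of the 4623 without, and in 14.6% (12.1 to 17.4) of the 713 cells with a Tcf7 UMI and 13.4% (12.4 to 14.4) of the 4897 without. Bach2 split by Tcf7 or Lef1 gave 7.99% against 6.96% and 6.48% against 7.22% in the mSTAR1302 library, and 15.1% against 18.1% and 12.8% against 18% in the vehicle library. In all 8 of these readings across the pairs the intervals overlap, and in the 4 within the pairs they do not. Overlap does not show that shares are equal, and no interval of these differences was read. In the vehicle library Ccr7 was more frequent with Tcf7 and less frequent with Lef1, with intervals that overlap only at their ends, so the pairs were not fully separate.

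Il7r was split by genes of both pairs. It was in 56.2% (52.5 to 59.9) of the 713 cells with a Tcf7 UMI and 44.5% (43.1 to 45.9) of the 4897 without in the mSTAR1302 library. In the vehicle library it was in 52.0% (45.6 to 58.3) of the 252 cells with a Tcf7 UMI and 45.7% (43.6 to 47.9) of the 2088 without, with overlapping intervals. By Ccr7, Il7r was in 52.7% (49.1 to 56.3) of the 759 cells with a Ccr7 UMI and 45.0% (43.6 to 46.4) of the 4851 without in the mSTAR1302 library and in 50.4% (47.1 to 53.7) of the 897 cells with a Ccr7 UMI and 43.9% (41.4 to 46.5) of the 1443 without in the vehicle library, and neither pair of intervals overlaps. By Lef1 and by Bach2 the intervals of Il7r overlap in both libraries. Slamf6 went with Tcf7. Tcf7 was in 17.7% (14.7 to 21) of the 605 cells with a Slamf6 UMI and 12.1% (11.2 to 13.0) of the 5005 without in the mSTAR1302 library, and in 18.9% (14.2 to 24.4) of the 243 cells with a Slamf6 UMI and 9.82% (8.58 to 11.2) of the 2097 without in the vehicle library. Cells with at least 3 of the 7 genes made up 7.91% (7.22 to 8.65) of mSTAR1302 and 11.8% (10.6 to 13.2) of vehicle CD8 cells. The order of the libraries was the same in CD4 cells without Foxp3, at 11.7% (9.43 to 14.4) and 25.5% (21.9 to 29.4), and the opposite in those with Foxp3, at 11.9% (6.98 to 18.7) and 4.42% (3.37 to 5.69).

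**Figure D3:**
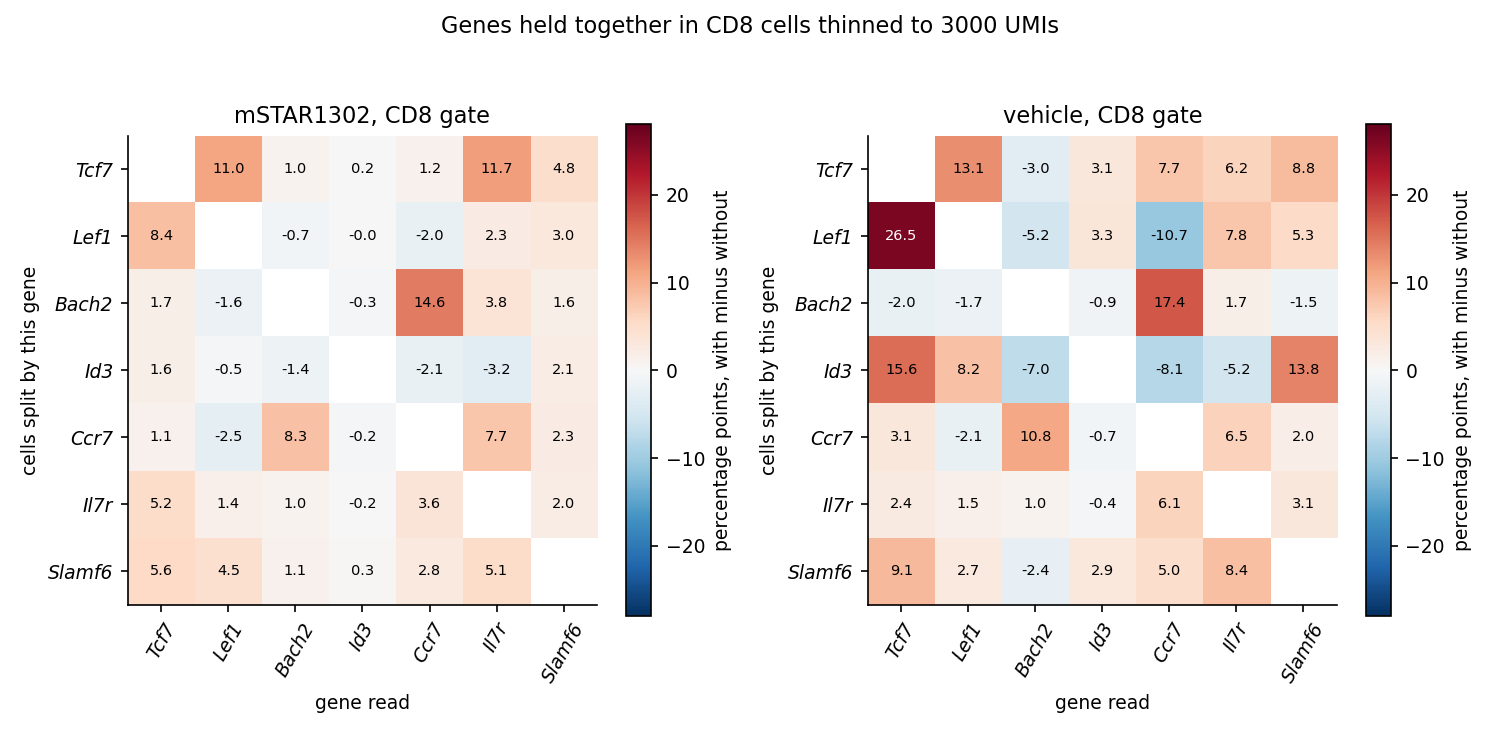
Share of thinned CD8 cells that hold the gene of the column, among cells with the gene of the row minus among cells without it, in percentage points, for the mSTAR1302 library (left) and the vehicle library (right). Red squares join Lef1 with Tcf7 and Ccr7 with Bach2 in both libraries, and Lef1 with Ccr7 is blue in the vehicle library.

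In CD4 cells without Foxp3 the split into pairs was not seen in the vehicle library. There Lef1 was found in 39.0% (31.8 to 46.6) of the 177 cells with a Tcf7 UMI and 12.2% (9.06 to 16.0) of the 368 without, and Ccr7 in 42.4% (35.0 to 50.0) of the 177 cells with a Tcf7 UMI and 18.2% (14.4 to 22.5) of the 368 without. Ccr7 was also found in 48.3% (35.2 to 61.6) of the 60 cells with a Bach2 UMI and 23.3% (19.6 to 27.3) of the 485 without. In the mSTAR1302 library Lef1 was in 23.8% (15.9 to 33.3) of the 101 cells with a Tcf7 UMI and 17.0% (14.0 to 20.3) of the 589 without, with overlapping intervals. Slamf6 was in 38.6% (29.1 to 48.8) of the 101 cells with a Tcf7 UMI and 19.2% (16.1 to 22.6) of the 589 without there, with intervals that do not overlap.

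Transcripts of CD8 cell state showed where each gene lay. Gzmb (granzyme B, a killing enzyme) was in 73.8% of mSTAR1302 and 31.3% of vehicle CD8 cells at 3000 UMIs, Gzma in 54.8% and 5.3%, Pdcd1 (the inhibitory receptor PD-1) in 18.5% and 39.5%, Tox (a factor of exhausted T cells) in 5.56% and 21.9%, Xcl1 (a chemokine for cross-presenting dendritic cells) in 7.66% and 34.4%, and Mki67 (a proliferation marker) in 12.1% and 11.1%. The libraries thus differed widely in granzymes, Pdcd1, Tox and Xcl1, and little in Mki67. Klrg1, a receptor of terminal effector cells, was in 0.749% and 5.68%. Xcl1 and Tox were added later than the other states.

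Tcf7 and Lef1 were higher in cells without Pdcd1 than in cells with it. By Pdcd1, Tcf7 was 21.9 CPM with and 59.4 CPM without in the mSTAR1302 library and 25.6 CPM with and 69.3 CPM without in the vehicle library. It was thus 2.71-fold lower (2.12 to 3.53) in cells with it in the mSTAR1302 library and 2.71-fold lower (2.08 to 3.56) in the vehicle library. Lef1 was 2.9-fold lower (2.33 to 3.66) and 3.11-fold lower (2.05 to 4.85). Both factors were thus lower in Pdcd1 cells by about the same factor in each library. These Tcf7 levels were lower in the mSTAR1302 library both with and without Pdcd1, whereas over all CD8 cells Tcf7 was slightly higher there. No interval is given for that comparison.

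Ccr7 and Bach2 differed from them by Pdcd1, and were higher in cells with Pdcd1 or Xcl1. They were also higher in cells without Gzmb or Gzma, a split for which no contrast with Tcf7 and Lef1 is drawn here. By Gzmb, Ccr7 was 56.3 CPM with and 210.5 CPM without in the mSTAR1302 library, 3.74-fold lower (3.38 to 4.13), and 139 CPM with and 537 CPM without in the vehicle library, 3.85-fold lower (3.42 to 4.35). Bach2 by Gzmb was 2.02-fold lower (1.67 to 2.44) and 2.32-fold lower (1.84 to 2.96). By Gzma, Ccr7 was 3.21-fold lower (2.88 to 3.59) and 6.17-fold lower (4.21 to 9.47), and Bach2 1.85-fold lower (1.53 to 2.24) and 2.23-fold lower (1.29 to 4.22). This did not hold for every granzyme, since Gzmd, chosen after its values were seen, was 2.96-fold and 1.65-fold higher in cells with a Bach2 UMI than in those without. By Xcl1 Ccr7 was 2.25-fold higher (1.96 to 2.57) and 1.53-fold higher (1.42 to 1.65), and Bach2 1.64-fold higher (1.22 to 2.17) and 1.68-fold higher (1.41 to 2.0). In cells with Pdcd1 Ccr7 was 2.22-fold higher (2.0 to 2.47) and 1.37-fold higher (1.28 to 1.48), and Bach2 1.56-fold higher (1.26 to 1.92) and 1.48-fold higher (1.24 to 1.76). So in the CD8 cells of these tumours Ccr7 did not follow Lef1, another gene of naive cells. Il7r was 1.44-fold lower (1.3 to 1.59) in cells with Mki67 in the mSTAR1302 library and 1.43-fold lower (1.22 to 1.68) in the vehicle library.

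**Figure D4:**
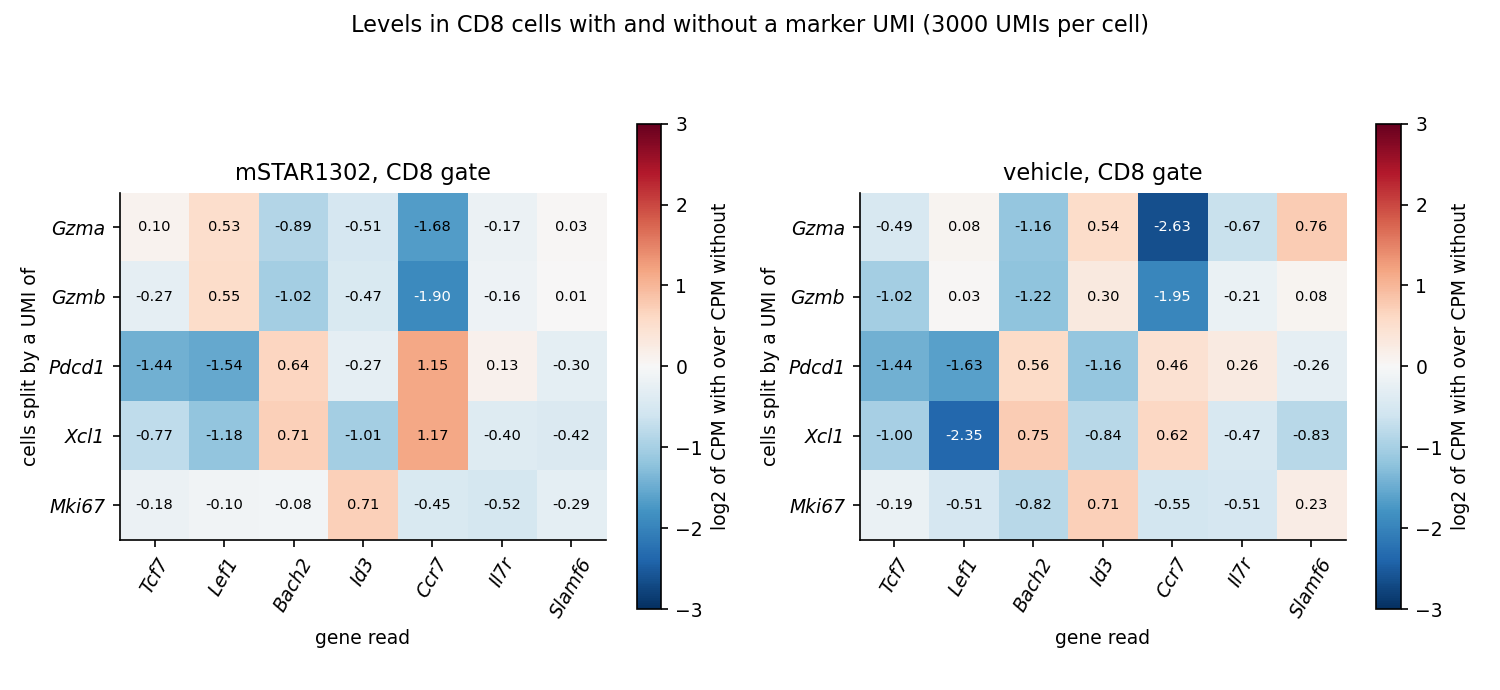
Log2 of the level of each gene (columns) in CD8 cells with a UMI of a state marker (rows) over that in cells without, at 3000 UMIs a cell, for the mSTAR1302 library (left) and the vehicle library (right). Tcf7 and Lef1 are blue in the Pdcd1 row, whereas Ccr7 and Bach2 are red there. Ccr7 and Bach2 are also red in the Xcl1 row and blue in the Gzmb row.

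Because the share of Gzmb cells differed between libraries, Ccr7, Bach2, Lef1 and Tcf7 were compared between libraries in cells with and without Gzmb. Ratios between libraries within the Pdcd1 states are not given here. Ccr7 was 2.47-fold lower (2.16 to 2.83) in the mSTAR1302 library among cells with Gzmb, at 56.3 and 139 CPM, and 2.55-fold lower (2.36 to 2.75) among cells without, at 210.5 and 537 CPM. Both ratios are smaller than the one over all CD8 cells. Bach2 was 1.81-fold lower (1.4 to 2.31) with Gzmb and 2.08-fold lower (1.75 to 2.47) without. Lef1 was 3.31-fold higher (2.5 to 4.48) with Gzmb and 2.31-fold higher (1.83 to 2.93) without. The differences of these 3 genes were thus present in both states. Tcf7 was 1.63-fold higher (1.27 to 2.13) in cells with Gzmb, and at 59.9 and 61.8 CPM in cells without, where the interval of the ratio holds 1.

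mSTAR1302 is described as binding the chains encoded by Trbv13-2 and Trbv13-3. A Trbv UMI was found in a minority of CD8 cells: 805 cells of the mSTAR1302 library and 101 of the vehicle library had one of these 2 segments, and 802 and 503 had only others. In the mSTAR1302 library Lef1 stood at 74.3 CPM (68.4 to 80.6) in cells with a bound segment and 40.9 CPM (36.7 to 45.6) in the others, 1.81-fold higher (1.58 to 2.08). Tcf7 stood at 49.0 CPM (44.2 to 54.1) in cells with a bound segment and 33.2 CPM (29.4 to 37.4) in the others, 1.48-fold higher (1.26 to 1.73). Ccr7 was the reverse, at 55.9 CPM (50.8 to 61.4) in cells with a bound segment and 144 CPM (136 to 152) in the others, 2.57-fold lower (2.3 to 2.88), and Bach2 was 2.04-fold lower (1.67 to 2.52) with a bound segment. Il7r, Slamf6 and Id3 had intervals that hold 1. The pairs seen within cells were thus also split by receptor segment.

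In the vehicle library the same split showed no difference beyond counting error for Tcf7, Lef1, Bach2, Id3 and Slamf6. Ccr7 stood at 299.6 CPM (272 to 329.8) in cells with a bound segment and 502 CPM (485 to 519) in the others, 1.67-fold lower (1.51 to 1.86), and Il7r was 1.2-fold lower (1.06 to 1.36) with a bound segment. Between libraries Lef1 was 6.48-fold higher (3.95 to 11.4) in the mSTAR1302 library among cells with a bound segment and 2.48-fold higher (1.99 to 3.12) among the others. The first of these ratios rests on 16 Lef1 UMIs in the vehicle library. Bach2 was 4.66-fold lower (3.61 to 6.0) and 2.07-fold lower (1.79 to 2.4), and Ccr7 5.36-fold lower (4.68 to 6.14) and 3.49-fold lower (3.26 to 3.73). Lef1, Bach2 and Ccr7 thus differed between libraries in cells of either kind, by more with a bound segment, and for each of the 3 the intervals of the 2 kinds do not overlap. Tcf7 had a ratio of 1.16 (0.878 to 1.55) with a bound segment and was 1.57-fold lower (1.33 to 1.85) with others. Without the cells that held both kinds of segment, 682 and 73 cells with a bound segment remained, and the ratios within the mSTAR1302 library were 1.86 for Lef1, 1.52 for Tcf7, 0.371 for Ccr7 and 0.502 for Bach2. In the vehicle library Lef1 was then at 15.9 CPM (9.07 to 25.8) with a bound segment and 16.5 CPM in the others. Ratios between libraries were not read in this setting, so the lack of overlap for Lef1 is known only with those cells kept.

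**Figure D5:**
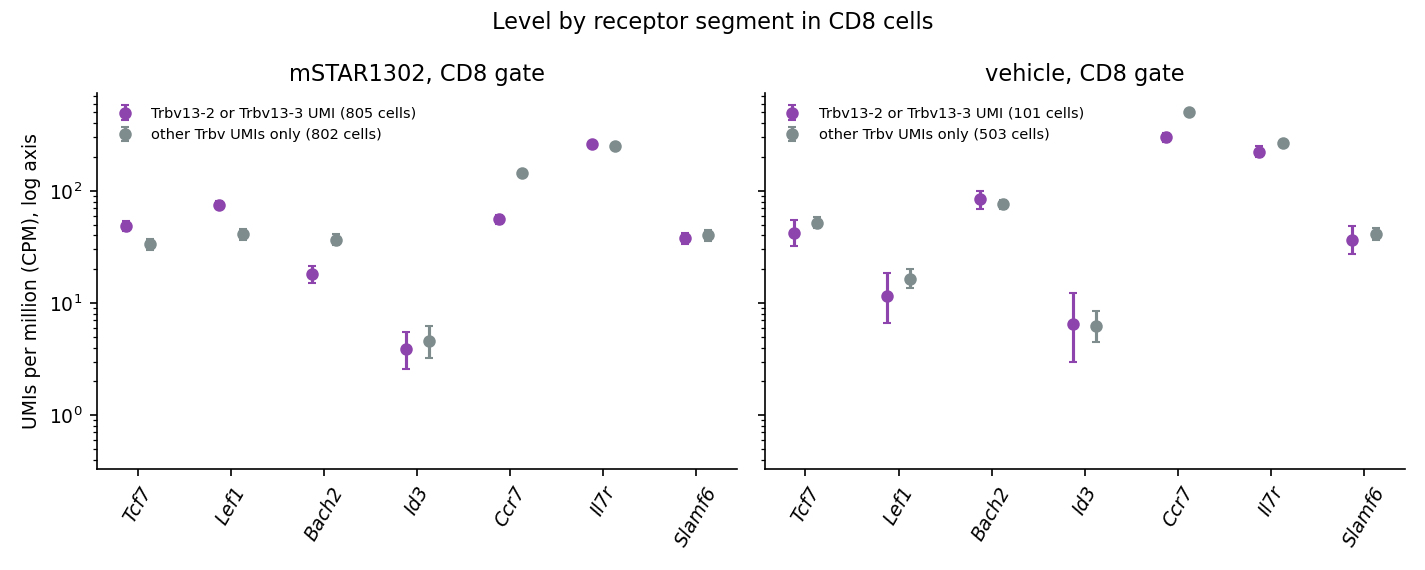
Level of each gene in CPM (log axis) in CD8 cells with a Trbv13-2 or Trbv13-3 UMI (purple) and with only other Trbv UMIs (grey), for the mSTAR1302 library (left) and the vehicle library (right), with bars for the 95% Poisson interval. Lef1 and Tcf7 are higher and Bach2 and Ccr7 lower in purple on the left, and on the right Ccr7 and, by less, Il7r are lower in purple.

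The genes most like Tcf7 in CD8 cells were ranked over 4728 genes of at least 20 CPM in both libraries by the ratio of their level in thinned cells with a Tcf7 UMI to that in cells without, taking the smaller ratio of the libraries. Itga4, an integrin chain, was near the top, 1.81-fold and 2.99-fold higher. Abcb1a, a membrane efflux pump, Cxcr4, a chemokine receptor, Elmsan1, Dusp10, a MAP kinase phosphatase, Emb and Itga6, another integrin chain, came next, from 1.52-fold (Itga6) to 1.66-fold (Abcb1a) in the mSTAR1302 library. Itga4 and Itga6 both take part in adhesion. At 2000 UMIs a cell, 3 of the 8 were among the first 8 again, namely Itga4, Cxcr4 and Dusp10, and Itga6 was not.

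Least like Tcf7 were the cytokine gene Il3, 3 granzymes, 2 chemokines, Havcr2 and Nrgn. Il3 was at 1.87 CPM in Tcf7 cells and 50.6 in the others of the mSTAR1302 library, and at 1.32 and 40.5 in the vehicle library. The chemokine Ccl3 was at 138 and 900.2 CPM in the mSTAR1302 library, and 6.53-fold and 10.2-fold lower in Tcf7 cells of the 2 libraries. Havcr2, the inhibitory receptor Tim-3, was 3.99-fold and 4.72-fold lower. The granzymes were Gzmd, Gzme and Gzmf, and the other chemokine was Ccl1. In all, 29 genes were at least 2-fold lower in Tcf7 cells of both libraries. Of the lowest 8, 3 were found again at 2000 UMIs.

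Related genes were counted by list, with at least 20 CPM in either library as measured. Of 24 measured companions of naive and memory T cells in the CD8 gate, 3 were past 2-fold upwards and 2 downwards, beside 1.04% and 4.73% of all genes of that level, with a median log2 ratio of 0.36. Ly6c1 and Ly6c2, surface proteins of memory CD8 cells, were at 465 against 97.7 CPM and 532 against 144 CPM in the mSTAR1302 and vehicle libraries, Klf3, a Kruppel-like factor, at 66.6 against 16.3 CPM, and Dapl1 at 8.01 against 84.6 CPM. Factors opposed to the naive state were lower where they differed: none of 18 was at least 2-fold higher and 4 were lower, with a median of -0.62. Those 4 were Tox at 21.4 against 84.1 CPM, Ikzf2 (Helios) at 62.9 against 190.3 CPM, the nuclear receptor Nr4a2 at 132 against 352 CPM and Zeb2 at 58.3 against 141 CPM. Ikzf2 is also among the regulatory T cell markers, which summed to 544 against 741 CPM in this gate.

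The partners of the receptors and factors differed less in CD8 cells. Of 13 interleukin-7 receptor pathway genes, 8 Wnt and TCF partners and 11 Bach2 partners, none was past 2-fold either way, with medians of -0.16, -0.00239 and -0.06. Among 8 SLAM family genes Slamf7 was higher, at 58.9 against 20.0 CPM. Of 4 E proteins and their inhibitors Tcf4, also a gene of plasmacytoid dendritic cells, was lower, at 5.23 against 28.3 CPM. Of the other chemokine receptors, Ccr2 was at 151 against 70.2 CPM and Cxcr3 at 49.7 against 24.8 CPM, both at least 2-fold higher and so the reverse of Ccr7. Ccl19 and Ccl21a, ligands of Ccr7, were not read. Only symbols that occur once in the matrices were used, and these were either absent or repeated.

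In CD4 cells without Foxp3, 7 of 27 measured companions were at least 2-fold lower and 2 higher, beside 5.35% and 0.906% of all genes, with a median of -0.56. Igfbp4 itself was at 4.59 against 73.8 CPM, Dapl1 at 3.64 against 30.8 CPM and Actn1 at 8.81 against 41.2 CPM, whereas Ly6c1 was at 207 against 53.2 CPM. Of 18 opposed factors 3 were lower, Ikzf2 at 84.0 against 572 CPM, Prdm1 at 25.3 against 57.9 CPM and Maf at 253 against 524 CPM, and none was higher. Ikzf2 is also among the regulatory T cell markers, which summed to 563 against 1424 CPM in this gate. Of 11 Bach2 partners 3 were lower, the AP-1 genes Jun at 297 against 639 CPM and Fosl2 at 88.4 against 179 CPM and the small Maf gene Maff at 29.9 against 62.3 CPM, with a median of -0.78. The other 8 lay within 2-fold. Socs3, an inhibitor of cytokine signals, was the 1 of 13 interleukin-7 pathway genes past 2-fold, at 72.7 against 162 CPM. Among chemokine receptors Cxcr6 was higher, at 456 against 156 CPM, and Ccr9 and Cxcr4 lower, at 0.383 against 25.2 CPM and 62.4 against 141 CPM, with Ccr9 from 2 UMIs in the mSTAR1302 library (ratio of vehicle over mSTAR1302 65.9, interval 17.8 to 551). Slamf7 was at 36.2 against 8.1 CPM, Ly9 at 12.1 against 35.4 CPM and Tcf4 at 3.25 against 30.3 CPM, and no Wnt partner of 8 was past 2-fold. Ccr9 and Tcf4 are also in the marker list of plasmacytoid dendritic cells. That list summed to 111 CPM in the mSTAR1302 library and 272 in the vehicle library of this gate, and its part was not tested.

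In CD4 cells with Foxp3, 4 of 22 companions were at least 2-fold higher and none lower, beside 0.576% and 1.95% of all genes, with a median of 0.27. They were Ly6c2 at 41.7 against 11.4 CPM, Ly6c1 at 117 against 36.6 CPM, Klf3 at 31.3 against 13.2 CPM and the survival gene Bcl2, also the 1 of 13 interleukin-7 pathway genes past 2-fold, at 24.1 against 10.2 CPM. Of 18 opposed factors 2 were lower, Zeb2 at 8.83 against 53.0 CPM and Nr4a1 at 135 against 331 CPM, and of 10 Bach2 partners Nfe2l2 was lower, at 10.4 against 21.2 CPM. No gene of the SLAM, Wnt, E protein and chemokine receptor lists was past 2-fold. Ly6c1, Ly6c2 and Klf3 were thus higher by at least 2-fold in the mSTAR1302 library in CD8 cells and in CD4 cells with Foxp3. Ly6c1 was so in CD4 cells without Foxp3 as well.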

How the data were processed

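The authors deposited raw UMI counts, whole numbers for each gene in each barcode, from Cell Ranger on mm10 (version 4 in the file headers, 6.0.1 in the submitters' processing notes, which also name FastQC, MultiQC 1.9 and Seurat). Whether counting used strand is not given in the sources. Barcodes with at least 1000 UMIs, at least 500 genes and at most 10% mitochondrial UMIs were kept, and the last limit removed 1872 (17.0%) and 1704 (18.3%) barcodes. No doublet caller was run. Of 32285 gene identifiers 32158 matched GENCODE M21, which gave positions.

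UMIs of each gate were summed and scaled to CPM. Intervals are exact Poisson for levels, exact conditional binomial for ratios, Clopper-Pearson for shares and Newcombe for differences of shares. The mSTAR1302 and vehicle groups came from the labels. Calculations ran in SciPy 1.17.1 and NumPy 2.4.6 under Python 3.11.15, with pandas 2.3.3 for tables and matplotlib 3.10.9 for plots, and the calculations were tested on simulated data.

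The 7 genes, the lists and the tests were chosen with earlier results of these data known. Named beside them are at most 4 genes per list and gate that differ by at least 2-fold with at least 20 CPM in either library, the 8 genes most and least like Tcf7, and gate, state and marker genes. Some items of these lists are not reported here. Alternatives changed the scaling, pseudocount, cell filters, thinning and the cells of each gate.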

Additional observations from a re-analysis of the deposited data

Results flagged for a closer look

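Lef1 had opposite directions in the CD8 gate and in the CD4 gate lacking Foxp3: its log2 ratio of mSTAR1302 over vehicle was 1.91 in the first and -1.0 in the second. With 1 library a group the difference between the gates was not tested. Without cells holding Igfbp4, the CD4 ratio was 0.849, with a counting interval of 0.716 to 1.01, and the CD8 ratio was 4.31.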

How the results depend on the processing

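Of the values other than medians and counts under an alternative, 241 stayed within counting error of the reported one, 83 moved and 2 reversed. Those 2 were differences in the share of CD8 cells, mSTAR1302 minus vehicle: for Tcf7, 1.94 percentage points and -0.71 unthinned, and for Id3, -0.718 and 0.0345 at 2000 UMIs. Ratios between libraries of less than 2-fold were never labelled reversed, yet some changed sign under an alternative. These were Il7r in all 3 gates, Slamf6 in CD8 cells, and Tcf7, Id3 and Ccr7 in CD4 cells with Foxp3. Id3 in that last gate ranged from -0.33 to 1.01 on the log2 scale. The cause was not tested. Lef1 in CD8 cells ranged from 1.57 to 2.17 on the log2 scale over 14 alternatives, Ccr7 from -2.20 to -1.93, Bach2 from -1.58 to -1.26 and Tcf7 from 0.02 to 0.29. In CD4 cells without Foxp3, over 13 alternatives, Lef1 ranged from -1.04 to -0.15, Tcf7 from -1.54 to -0.72, Ccr7 from -1.20 to -0.87 and Bach2 from -1.41 to -0.38. In CD4 cells with Foxp3 Tcf7 ranged from -0.33 to 1.29.

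The CD8 median log2 ratio of 0.04 was 0.18 with median-ratio scaling, -0.038 with cells weighted equally, 0.084 over genes of at least 20 CPM, -0.026 without Igfbp4 cells, -0.0039 with 2 UMIs to open a gate, -0.080 when thinned before gating, -0.041 without the 5% deepest cells, -0.13 without cells holding transcripts of other types and -0.13 without both these and Igfbp4 cells. In CD4 cells without Foxp3 the median of -1.0 was -0.79 with median-ratio scaling, -0.78 with cells weighted equally, -0.36 without Igfbp4 cells, -0.38 when thinned before gating and -0.55 without Igfbp4 cells and cells of other transcripts. Its 4 genes at least 2-fold lower became 2, 1, 1 and 2 with median-ratio scaling, without Igfbp4 cells, thinned before gating and without both kinds of cell. In CD4 cells with Foxp3, 0 genes at least 2-fold higher became 1 without Igfbp4 cells, 1 with a mitochondrial limit of 5%, 2 when thinned before gating and 2 without cells holding transcripts of other types. The cause of these moves was not tested. Removing both kinds of cell and subtracting free RNA were chosen after seeing the data. No paired analysis was possible because each group has 1 library. The depth of the Foxp3 gate, 146 mSTAR1302 cells, limits what its ratios can show.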
